A study of Mus musculus with 14 samples.

Results

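The mouse genome build mm9 carries, beside the assembled chromosomes, sequences that could not be placed on any of them. In the peak lists they bear names that begin with NT_, and every peak on such a contig was kept here. They came to 1589 of the 557412 peaks in 12 lists (0.285%), on 39 contigs. NT_166441 alone held 760 of them, 722 from FLAG lists and 38 from H3K4me3 lists. The other 38 contigs held 829, of which 361 were FLAG peaks and 468 were H3K4me3 peaks.

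The lists came from neurosphere cultures of neural stem cells out of the mouse hindbrain at e15.5 (a day of embryonic age). All 6 cultures carried Nestin-cre, which removes a stop cassette in neural progenitors. Of these, 3 female cultures were Nestin-cre; H3f3aLSL-K27M-Tag/+ (K27M-Tag), in which 1 copy of the gene for histone H3.3 yields a tagged protein with methionine in place of lysine 27. The other 3 (WT-Tag) were Nestin-cre; H3f3aLSL-WT-Tag/+, with a tagged but otherwise normal H3.3; replicates 1 and 2 were female and replicate 3 was male. No culture without a tag was analysed here, so each FLAG value has the other genotype as its only comparison. Chromatin immunoprecipitation with sequencing (ChIP-seq) was done in each culture with an antibody to the FLAG tag, which reads the tagged H3.3, and with one to H3K4me3, giving 1 list per culture and antibody. The 2 input libraries, each a composite of the 3 cultures of a genotype, have no peak list here and were not analysed.

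H3.3 is the histone H3 variant that is laid down throughout the cell cycle. It is found at active promoters, enhancers and gene bodies, and also in repeated sequence such as telomeres and retrotransposons. The K27M change, known from childhood brainstem and midline gliomas, alters the lysine that the Polycomb methyltransferase PRC2 modifies. H3K4me3, the trimethylated lysine 4 of histone H3, marks active promoters. Unplaced contigs are often rich in repeats or duplicated segments, which is one reason an assembly fails to place them.

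The FLAG lists held 57589 to 88285 peaks in K27M-Tag and 32763 to 47293 in WT-Tag cultures, and the H3K4me3 lists 35366 to 38720 and 31932 to 32504. On the chromosomes the mean covered length of FLAG peaks was 2.56 times as large in K27M-Tag as in WT-Tag, and that of H3K4me3 peaks 1.17 times. The genome-wide background coverage that gives back the deposited fold and p of each peak lay between 2.77 and 3.60 reads per base in all 12 libraries. A percentile below gives a peak's place in its own list, ordered by the deposited −log10 q, with 100 at the top. Lists of different length shift percentiles and ranks, so these describe a list and do not by themselves show a change.

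NT_166441 was densely covered by FLAG peaks, and more so in WT-Tag than in K27M-Tag cultures, against the direction on all 20 chromosomes. The K27M-Tag lists had 114, 62 and 126 FLAG peaks there (replicates 1 to 3), and the WT-Tag lists 145, 139 and 136. These peaks covered 49.8, 19.7 and 50.4 kb in K27M-Tag against 78.5, 103 and 67.4 kb in WT-Tag lists. Every WT-Tag list was above every K27M-Tag list in both measures, and K27M-Tag replicate 2 was the lowest. The mean covered length of K27M-Tag lists was 39971 ± 17529 bp and that of WT-Tag lists 82813 ± 17978 bp (SD, n = 3 each), 2.07 times as long in WT-Tag. The exact permutation test (two-sided) gave p = 0.100, the smallest that 3 against 3 cultures allow, and 0.156 after Benjamini-Hochberg adjustment over 14 tests, so no genotype difference of this kind could pass 0.05. As a share of all covered bases in the list, NT_166441 took 0.112, 0.0623 and 0.101% in K27M-Tag against 0.704, 0.526 and 0.359% in WT-Tag lists, with the same p.

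**Figure D1:**
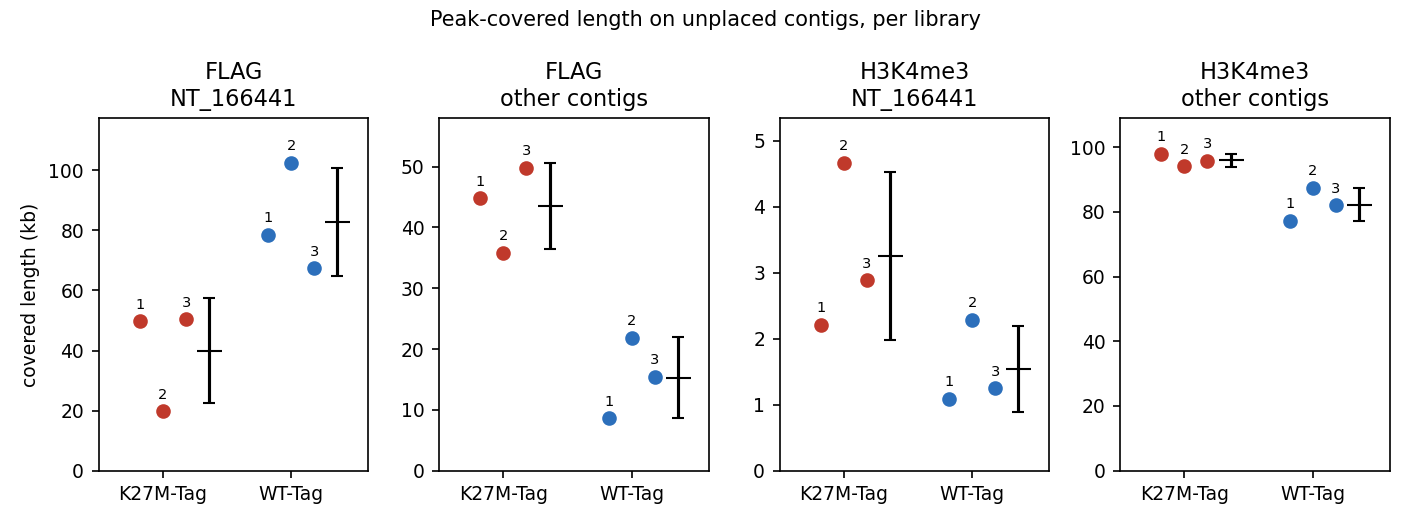
Points give the length (kb) covered by peaks in each library on NT_166441 and on the other contigs, for FLAG and H3K4me3, numbered by replicate; bars beside them give the mean ± SD of 3 libraries, and the 4 panels have different scales. FLAG on NT_166441 is the panel where all WT-Tag libraries (67.4 to 103 kb) lie above all K27M-Tag libraries (19.7 to 50.4 kb).

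The WT-Tag peaks on NT_166441 were also wider and stood higher in their lists. Their median width was 485, 662 and 428 bp in the WT-Tag lists and 414.5, 296 and 367 bp in the K27M-Tag lists. Their median percentile was 83.3, 85.2 and 59.9 in WT-Tag, against 39.6, 29.9 and 35.5 in K27M-Tag (p = 0.100, two-sided exact permutation test, n = 3 and 3). In WT-Tag lists the median NT_166441 peak thus lay above the middle of the list, and in K27M-Tag lists below it. The median peak reached 7.44, 7.53 and 6.31 times the genome-wide background in WT-Tag and 5.38, 5.09 and 4.99 times in K27M-Tag lists. On the chromosomes the genotypes overlapped in this ratio, with 6.01, 5.99 and 5.83 in the K27M-Tag lists and 6.15, 5.80 and 6.01 in the WT-Tag lists.

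The best FLAG peak on NT_166441 ranked 4th, 3rd and 626th in the WT-Tag lists and 13593rd, 6541st and 13079th in the K27M-Tag lists. In WT-Tag replicate 1 it was NT_166441:96362-96861, with a deposited fold enrichment of 11. In WT-Tag replicate 2 it was NT_166441:107165-108362 (fold 10.4), and in replicate 3 NT_166441:119490-120763 (fold 7.60). The highest-ranked peaks of the 3 WT-Tag lists were thus at 3 different positions. In K27M-Tag replicate 1 the best peak was NT_166441:173482-174256 (fold 6.25); in replicates 2 and 3 it lay at the far end of the contig, at NT_166441:234393-235009 (fold 6.69) and NT_166441:234219-235088 (fold 6.52). Of the 1000 highest peaks of a list, 27, 14 and 1 were on NT_166441 in WT-Tag and 0 in each K27M-Tag list.

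The direction of the FLAG difference on NT_166441 was shared by one further contig and by no chromosome. FLAG peaks were present in all 6 lists on 20 chromosomes and 9 contigs. All 20 chromosomes and 7 of the 9 contigs had a larger mean covered length in K27M-Tag. The log2 ratios were 1.11 to 1.65 on the autosomes and 2.34 on chromosome X. Sex is not balanced between the genotypes, and its part in the X ratio was not tested. NT_166441 (log2 −1.05) and NT_166443 (log2 −0.81) had a smaller one. On both, all 3 WT-Tag lists were above all 3 K27M-Tag lists, which held for 6.90% of the 29 sequences, these 2 themselves; the opposite order held for 86.2%. Over windows of 200 kb, all WT-Tag lists were above all K27M-Tag lists in 7 of 5094 windows with FLAG peaks in all 6 lists (0.137%), and all K27M-Tag above all WT-Tag in 78.2%. The windows of both contigs were among the 7. By covered length the NT_166441 window was the 1st of all windows in each WT-Tag list, and 21st, 203rd and 25th in the K27M-Tag lists.

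**Figure D2:**
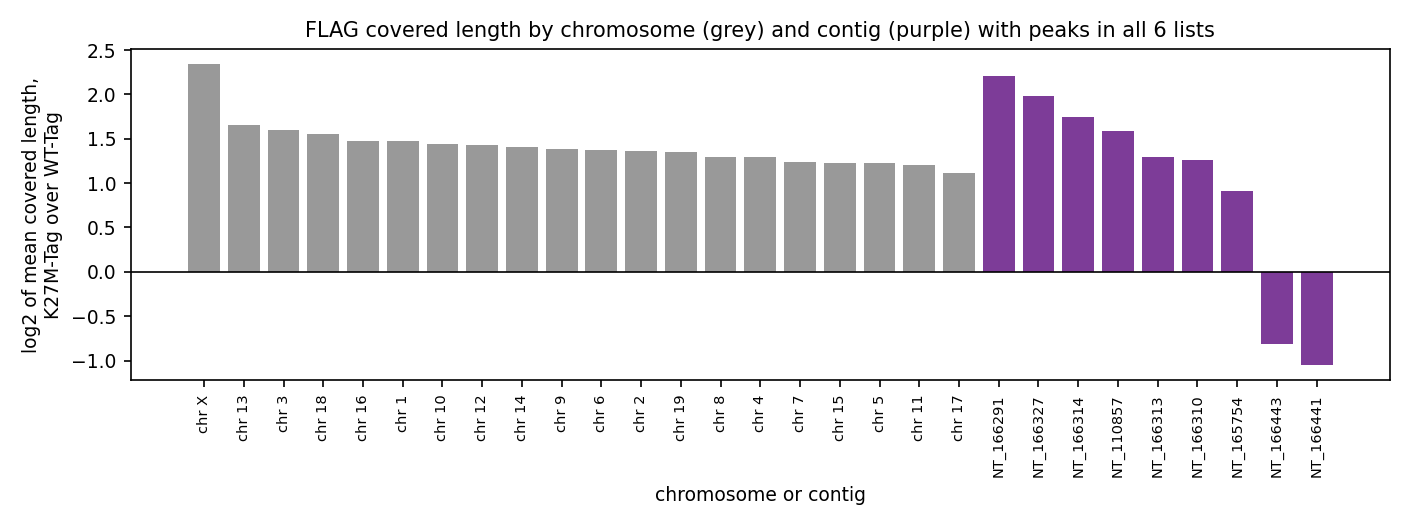
Bars give the log2 ratio of the mean length covered by FLAG peaks, K27M-Tag over WT-Tag (3 libraries each), for every chromosome (grey) and contig (purple) with FLAG peaks in all 6 lists. The autosomes lie between 1.11 and 1.65 and chromosome X at 2.34, and NT_166443 (−0.81) and NT_166441 (−1.05) are the bars below 0.

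Along NT_166441 the FLAG peaks formed 1 long block. From the first peak at base 32660 to base 179321, over 147 kb, no gap between FLAG peaks of the 6 lists together was over 5 kb. The lists covered 33.5, 12.8 and 32.9% of the block in K27M-Tag against 53.5, 69.5 and 45.7% in WT-Tag cultures. After the block came 5.33 kb without a peak of either antibody, and then 1 strong H3K4me3 region at NT_166441:184650-185983, present in all 6 H3K4me3 lists. No FLAG list had a peak at that region. Beyond the H3K4me3 region, FLAG peaks did not share the direction of the block. They covered 689, 923 and 2111 bp in the K27M-Tag lists and 0, 588 and 307 bp in the WT-Tag lists, all K27M-Tag above all WT-Tag. That order was also found in 78.2% of the 200 kb windows with FLAG peaks in all 6 lists. All of these peaks lay at NT_166441:232210-235128, except for a single peak of K27M-Tag replicate 3 at NT_166441:194290-194493.

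**Figure D3:**
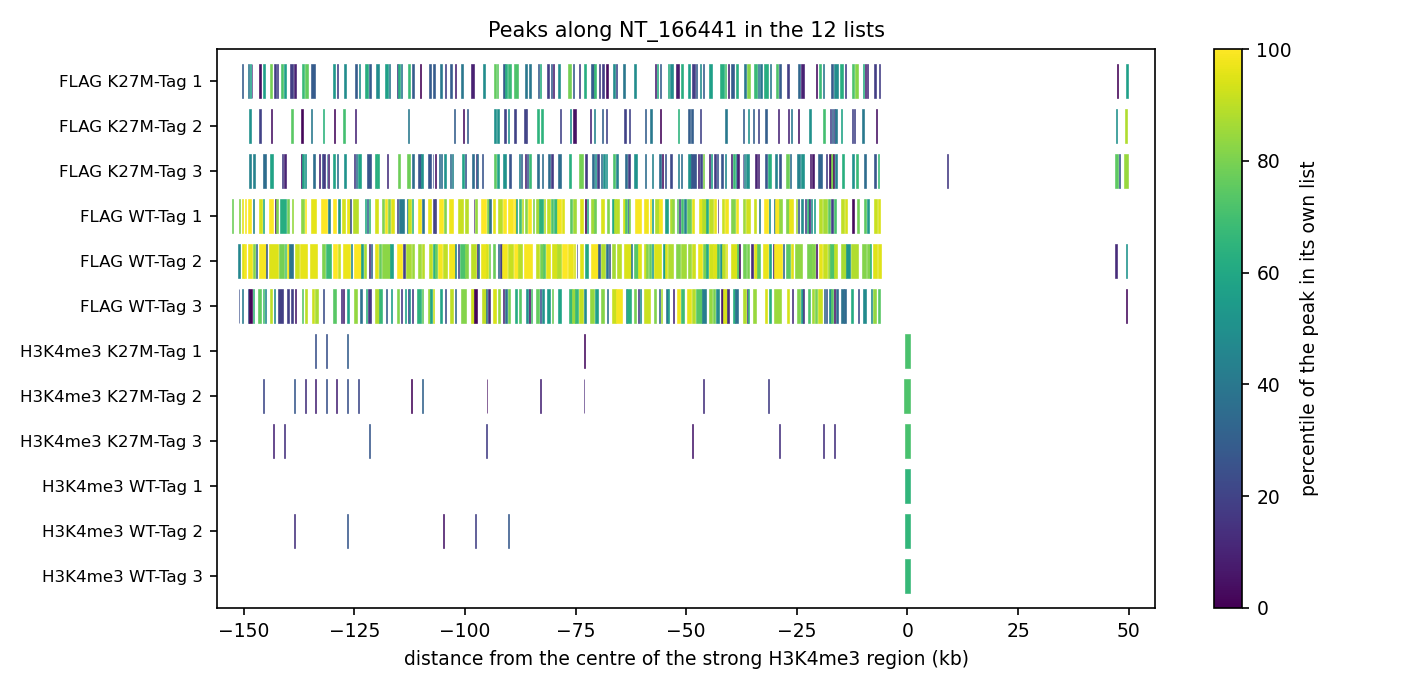
Each row is 1 of the 12 lists and each mark a peak on NT_166441, drawn to scale by its distance (kb) from the centre of the strong H3K4me3 region and coloured by its percentile in its own list. The FLAG block ends short of that region in every FLAG list, and its marks are denser and of higher percentile in the 3 WT-Tag rows.

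Joined across the lists, the FLAG peaks of NT_166441 made 106 regions. Of these, 103 had a peak in at least 1 WT-Tag list and 84 in at least 1 K27M-Tag list; 79 had one in all 3 WT-Tag lists and 43 in all 3 K27M-Tag lists. A total of 4 regions were in all 3 WT-Tag lists and in no K27M-Tag list, against 0.585% of 117816 FLAG regions of all sequences, and 0 were in all 3 K27M-Tag lists and in no WT-Tag list, against 9.89%. The 3 WT-Tag regions that stood highest by their lowest percentile were NT_166441:68370-69293 (669, 761 and 206 bp), NT_166441:90098-91111 (662, 950 and 520 bp) and NT_166441:34089-34482 (304, 320 and 197 bp). They lay in different parts of the block. The number of regions specific to WT-Tag on NT_166441 was 8 without K27M-Tag replicate 3 (1166 of 104982 over all sequences). With WT-Tag replicates 1 and 3 left out in turn it was 8 and 10 (2509 of 115803 and 1271 of 112268). It changed little without K27M-Tag replicate 1 (5, and 1019 of 111558), K27M-Tag replicate 2 (4, and 791 of 116735) or WT-Tag replicate 2 (5, and 1384 of 112880). It was 16 in the higher-scoring 50% of each list (486 of 62871) and 29 in lists cut to equal size (1727 of 66793). When peaks were joined across 1000 bp it was 0 (482 of 75243), which left 5 regions on the contig. With the full lists the count over all sequences was 689 of 117816.

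The 41 regions with a peak in all 6 lists could be tested for breadth, that is, for the log2 number of covered bases. This filter leaves out the other 65 regions, so the counts do not describe the whole contig. All 41 had a smaller fitted breadth in K27M-Tag, with a median log2 difference of −0.88, while the median over the 11980 FLAG regions tested was 0.81. With limma's moderated test and Benjamini-Hochberg adjustment over those 11980 regions, 7 of the 41 were narrower in K27M-Tag (0.618% of all regions tested were) and 0 wider (43.1% of all were); at an unadjusted p under 0.05 the numbers were 20 and 0. In 17 of the 41, all WT-Tag values were above all K27M-Tag values, which was so in 1.48% of all regions tested, and in 0 the order was the opposite, which was so in 58.1%. The 7 had log2 differences from −1.12 to −1.88. The call at NT_166441:162642-164902 was the one with the largest difference (log2 −1.88, SE 0.39, adjusted p = 0.00644, limma). The number narrower was 13 of 44 without K27M-Tag replicate 1 (0.439% of all regions tested), and 4 of 40 without WT-Tag replicate 2 (0.27%). Regions of one recurrent pattern are not independent of each other. Because the median of all regions is 0.81, each list was also centred on its own median. Then 38 of the 41 were narrower, as were 11.5% of all regions tested.

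The 3 of the 41 regions with the most covered bases over the 6 lists showed how far cultures of a genotype differed from each other. NT_166441:135514-139715 had 2152, 963 and 2571 covered bases in the K27M-Tag lists and 2816, 2994 and 3581 in the WT-Tag lists. The groups did not overlap, and the breadth did not pass the test (log2 −0.83, SE 0.33, limma adjusted p = 0.0686). NT_166441:41068-44932 had 2227, 356 and 1189 bases in K27M-Tag against 2924, 3334 and 2065 in WT-Tag; here K27M-Tag replicate 1 was above WT-Tag replicate 3 (log2 −1.47, SE 0.56, limma adjusted p = 0.0594). NT_166441:167331-169727 had 1517, 1030 and 1335 bases in K27M-Tag against 1562, 1847 and 1196 in WT-Tag, with overlapping groups (log2 −0.24, SE 0.26, limma adjusted p = 0.458). K27M-Tag replicate 2 had the fewest bases of the 6 in all 3 of these regions.

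The peaks in the block came at regular distances. The autocorrelation of FLAG coverage asks how well the pattern matches itself when shifted along the contig by a given lag. For the number of lists that covered each base, it was highest at 2430 bp within lags of 500 to 4000 bp (0.63), and it rose again near multiples of that distance, at 4890 bp (0.61), 7320 bp (0.57), 9760 bp (0.51), 12190 bp (0.47) and 14630 bp (0.45). Within the same range of lags, each list on its own had its highest value close to the same lag. In K27M-Tag lists the lag was 2480, 2330 and 2420 bp, with autocorrelations of 0.32, 0.16 and 0.21. In WT-Tag lists it was 2450, 2420 and 2430 bp, with 0.29, 0.28 and 0.28. K27M-Tag replicate 2, the list with the fewest peaks on the contig, had the lowest value. Over all lags up to 15000 bp, 4 lists were slightly higher at a multiple than at the first lag. This was at 4840 bp in K27M-Tag replicate 1 (0.33), and near the third multiple in K27M-Tag replicates 2 (0.19) and 3 (0.26) and in WT-Tag replicate 2 (0.29). In 2 other windows rich in FLAG peaks, chr10:84200001-84400000 and chr2:26200001-26400000, the highest value lay at the shortest lag tried, 500 bp. The bases of one list are not independent observations, and no p is given for these values.

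**Figure D4:**
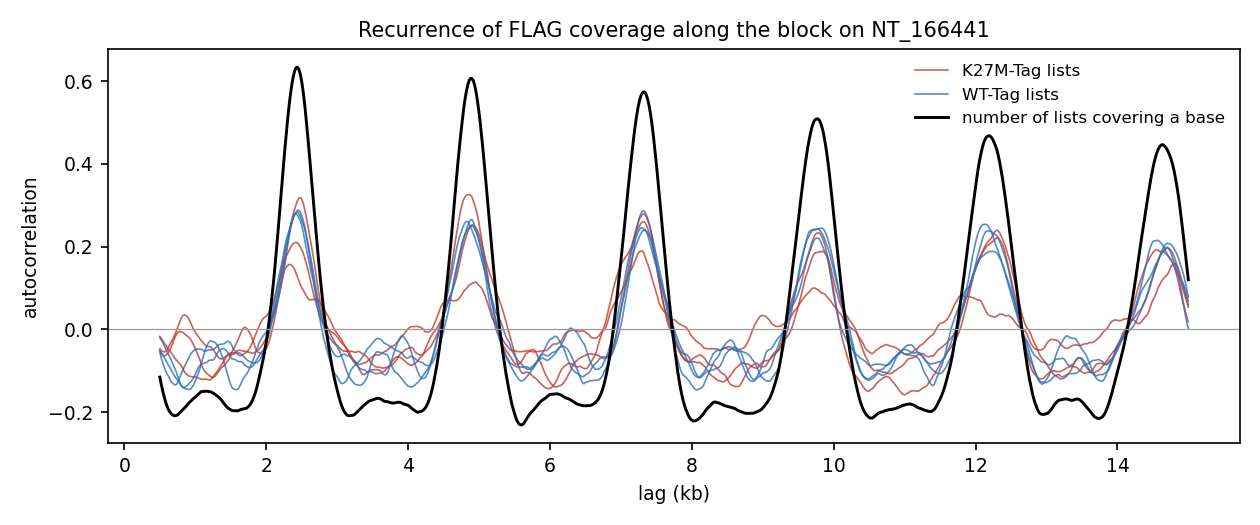
Autocorrelation of FLAG coverage within the block on NT_166441 against the lag (kb), for each of the 3 K27M-Tag (red) and 3 WT-Tag (blue) lists and for the number of lists covering a base (black). The black curve peaks at 2430 bp and near its multiples; the single lists run lower, and K27M-Tag replicate 2 follows it least, with 0.08 near the fifth multiple.

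The H3K4me3 antibody gave few peaks on NT_166441 and 1 that stood out. The lists had 5, 16 and 9 peaks in K27M-Tag against 1, 6 and 1 in WT-Tag cultures, covering 2209, 4668 and 2886 bp and 1088, 2288 and 1247 bp. The groups overlapped in both measures (p = 0.200 for each, two-sided exact permutation test, n = 3 and 3). The strong region just past the FLAG block was 1256, 1332 and 1228 bp wide in K27M-Tag against 1088, 1185 and 1247 bp in WT-Tag lists. By rank it lay in the upper part of the lists, at percentiles 71.2, 71.9 and 70.7 in K27M-Tag against 65.5, 65.7 and 67.1 in WT-Tag lists. Its deposited fold enrichment was 39.5, 42.4 and 32.4 in K27M-Tag against 21.4, 29.8 and 29.7 in WT-Tag cultures, all K27M-Tag above all WT-Tag. How many of all H3K4me3 regions have this order in fold was not counted, so it is not a trait of this region. Its breadth did not pass the test (log2 0.12, against a median of 0.14 over all 22592 H3K4me3 regions tested).

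All other H3K4me3 peaks of the contig lay within the FLAG block and were weak. There were 4, 15 and 8 in the K27M-Tag lists and 0, 5 and 0 in the WT-Tag lists, 32 in all, at 25 distinct sites (neighbouring summits within 300 bp counted as 1 site). They were 189 to 279 bp wide and their percentile was at most 31.4. They kept the spacing of the FLAG pattern: of the 300 pairs of distinct sites, 38 were under 8 kb apart, and all 38 distances were within 300 bp of a multiple of 2430 bp, a range that takes up 23.4% of the distances from 300 bp to 8 kb. Sites of one repeated pattern are not independent, so this is a description. In K27M-Tag replicate 2 a run of 7 neighbouring sites was spaced by 2343, 2409, 2367, 2327, 2513 and 2434 bp.

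FLAG coverage had a set place relative to these weak H3K4me3 summits. Of the 32 peaks, 11 overlapped a FLAG peak of the same culture, 1, 0 and 5 in the K27M-Tag and 0, 5 and 0 in the WT-Tag replicates. Around the 25 sites, and within 1 recurrence of the pattern centred on the summit, FLAG coverage was highest 580 bp before the summit in K27M-Tag (72.0% of sites under a peak, mean of 3 lists) and 620 bp before it in WT-Tag (94.7%). At the summit itself it was 32.0% in K27M-Tag and 66.7% in WT-Tag. It was lowest past the summit, at 1020 bp in K27M-Tag (0%) and 1120 bp in WT-Tag (8.00%). Both genotypes thus had FLAG peaks and gaps at the same places within the recurrent pattern, and the WT-Tag lists covered more of the sites at each of these 3 places.

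**Figure D5:**
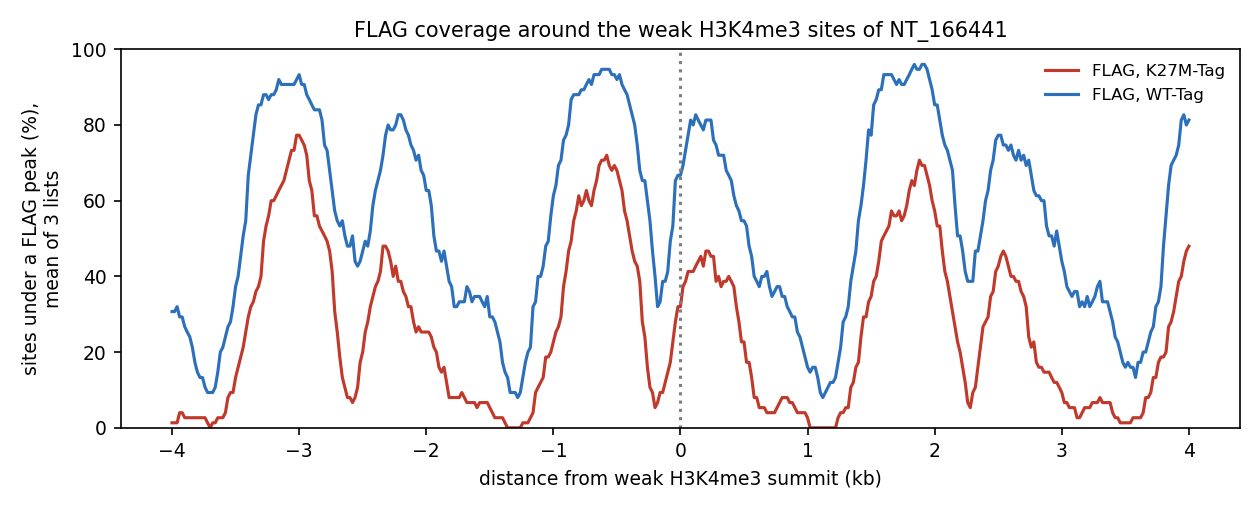
Share of the 25 weak H3K4me3 sites of NT_166441 that lie under a FLAG peak (%, mean of 3 lists per genotype) against the distance from the H3K4me3 summit (kb). Both curves rise and fall together, with 32.0% (K27M-Tag) and 66.7% (WT-Tag) at the summit.

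FLAG peaks took more of NT_166441 than H3K4me3 peaks in each of the 6 cultures. Over the 6 cultures the mean number of peaks was 120 ± 30.6 (SD, n = 6) for FLAG and 6.33 ± 5.65 (SD, n = 6) for H3K4me3. The mean covered length was 61.4 ± 28.3 kb and 2.40 ± 1.30 kb. With antibody labels permuted within each genotype, the two-sided exact permutation p was 0.00500 for each, the smallest this design allows (adjusted 0.0350 over 14 tests). That test does not use the pairing of the antibodies by culture. The exact sign-flip test on the 6 culture pairs gave p = 0.0312 for each, the smallest that 6 pairs allow. After adjustment over 14 tests it was 0.156. Even the smallest p could not pass after this adjustment, so the paired test cannot decide on either difference. In all 6 pairs the FLAG value was the larger in both measures. The median percentile was 55.6 ± 24.4 for FLAG and 35.3 ± 24.4 for H3K4me3 (SD, n = 6 each; exact permutation p = 0.0250, adjusted 0.117), and the sign-flip test gave p = 0.0625 (adjusted 0.156); in 2 WT-Tag lists the H3K4me3 value rests on 1 peak. Of FLAG covered bases on NT_166441, H3K4me3 peaks of the same culture held 0.671 ± 0.864% in K27M-Tag and 0.334 ± 0.578% in WT-Tag (SD, n = 3 each; exact permutation p = 0.70).

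Values of the deposited lists that bear on signal in repeated sequence moved with the genotype and are given here. The local background that the peak caller had set against a NT_166441 FLAG peak had a median of 1.00 times the genome-wide background over the 3 K27M-Tag lists. In the WT-Tag lists it was 1.05, 1.06 and 1.08 times. It was over 1.5 times in 0.877, 0 and 0% of the K27M-Tag and 13.8, 12.2 and 16.2% of the WT-Tag peaks. On the chromosomes that share was 9.50, 5.66 and 6.97% in K27M-Tag against 16.0, 12.8 and 20.1% in WT-Tag. The part of this in the difference between genotypes was not tested.

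A placed segment of chromosome 6 showed the same pattern as NT_166441. Among the 7 windows with all WT-Tag lists above all K27M-Tag lists was chr6:114400001-114600000, with 25.3, 9.44 and 21.9 kb of FLAG peaks in K27M-Tag against 35.0, 44.7 and 31.3 kb in WT-Tag lists. This window was picked out for its values, so its own values are a description. Its FLAG coverage had its highest autocorrelation at the lag seen on the contig, 2430 bp (0.61). The pattern of H3K4me3 coverage of the contig, slid along chr6 from 114350000 to 114700000, fitted best at a shift of 114408060 bp (correlation 0.90), and that of FLAG coverage at 114408020 bp (0.44, against 0.40 at the best shift over 1 kb away). The shifts chosen with each antibody differ by 40 bp.

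At the shift chosen with FLAG, the stretch chr6:114438021-114643148 had the same elements in the same order. It held a FLAG block, then 1 strong H3K4me3 region at chr6:114592760-114594115 with no FLAG peak on it, and then a last FLAG group 48.3 kb from the centre of that region, against 48.4 kb on NT_166441. FLAG peaks covered 26.0, 10.0 and 23.8 kb of the stretch in K27M-Tag against 35.6, 45.3 and 31.6 kb in WT-Tag lists, 1.88 times as much in WT-Tag by the means. Past the H3K4me3 region they covered 900, 606 and 1916 bp in K27M-Tag against 591, 726 and 367 bp in WT-Tag lists. There the groups overlapped, unlike on NT_166441. The H3K4me3 region was 1257, 1349 and 1221 bp wide in K27M-Tag against 1258, 1198 and 1117 bp in WT-Tag lists. Its fold was 36.7, 41.3 and 32.4 in K27M-Tag against 24.2, 33.4 and 29.0 in WT-Tag lists. Its percentile was 69.3, 71.2 and 70.7 against 69.6, 69.1 and 66.4. The groups overlapped in both, unlike at the region on NT_166441. Before the region there were 3, 8 and 4 weak H3K4me3 peaks in K27M-Tag and 0 in each WT-Tag list. The sequences of the 2 places were not compared here, and how reads that map to several places were treated is not given in the sources used here. Whether the 2 places have signal of their own or share reads was not tested.

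NT_166443, the other contig with more FLAG coverage in WT-Tag, had FLAG peaks in all 6 lists and no H3K4me3 peak. Its main peak spanned NT_166443:19617-20642, with 681, 609 and 569 bp in K27M-Tag against 793, 911 and 969 bp in WT-Tag lists; its breadth did not pass the test (log2 −0.52, SE 0.28, limma adjusted p = 0.154). Its percentile was 56.3, 58.5 and 38.6 in K27M-Tag against 99.9, 99.9 and 99.7 in WT-Tag cultures, and it was the highest-scoring peak on any contig other than NT_166441 in each WT-Tag list. There it ranked 25th, 64th and 116th. It reached 6.01, 5.99 and 5.83 times the background in K27M-Tag against 12.3, 15.4 and 11.7 times in WT-Tag. A second peak nearby, between bases 21688 and 22375, was found in 2 K27M-Tag and 3 WT-Tag lists.

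The other 38 contigs as a whole behaved like the chromosomes. FLAG peaks covered 44770, 35790 and 49794 bp of them in K27M-Tag against 8579, 21856 and 15464 bp in WT-Tag lists, all K27M-Tag above all WT-Tag, with a ratio of the means of 2.84 against 2.56 on the chromosomes. H3K4me3 peaks covered 98.1, 94.1 and 95.8 kb in K27M-Tag against 77.2, 87.5 and 82.2 kb in WT-Tag, with a ratio of 1.17, as on the chromosomes. Each of the 2 comparisons gave p = 0.100 (two-sided exact permutation test, n = 3 and 3; adjusted 0.156). Median FLAG percentiles were 48.7, 45.4 and 56.6 in K27M-Tag against 56.7, 45.9 and 44.5 in WT-Tag lists, near the middle of the list in both. A larger share of FLAG peaks met an H3K4me3 peak here than on NT_166441 in each of the 6 cultures. Of the FLAG peaks, 42.7 ± 3.73% in K27M-Tag and 23.6 ± 4.81% in WT-Tag overlapped an H3K4me3 peak of the same culture by at least 1 bp (SD, n = 3 each), against 1.62 ± 2.09% and 1.20 ± 2.08% on NT_166441. The share of H3K4me3 peaks that met a FLAG peak did not show this contrast. It was 28.3 ± 5.88% in K27M-Tag and 10.4 ± 4.03% in WT-Tag here (SD, n = 3 each). On NT_166441 it was 25.2 ± 28.2% and 27.8 ± 48.1%, from 1 to 16 H3K4me3 peaks per list.

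By contig, 14 of the 38 had peaks of both antibodies, 20 had H3K4me3 peaks alone and 4 had FLAG peaks alone. Those 4 were NT_166443, NT_166454 (6 peaks), NT_166286 (1 peak) and NT_166337 (1 peak). H3K4me3 peaks were in all 6 lists on 20 of the 38 and FLAG peaks on 8, and 7 contigs had peaks in all 12 lists. Those 7 were NT_166314 (76 FLAG and 31 H3K4me3 peaks), NT_165754 (57 and 44), NT_166313 (51 and 27), NT_166310 (41 and 15), NT_110857 (26 and 57), NT_166291 (20 and 12) and NT_166327 (18 and 25). NT_166323 had 34 FLAG and 57 H3K4me3 peaks, with no FLAG peak in WT-Tag replicate 1. NT_166326 had 7 FLAG peaks, all in K27M-Tag lists, and 13 H3K4me3 peaks.

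The contigs with H3K4me3 alone held few peaks each. NT_166455 had 30, NT_165789 had 29 and NT_166434 had 23, each in all 6 lists. NT_165795, NT_165796, NT_166342, NT_166447 and NT_166449 had 1 peak in each of the 6 lists. NT_161926, NT_166290, NT_166365 and NT_166479 had 5 peaks each and NT_166462 had 6, all from 5 lists, and NT_166358 had 4 from 4 lists. NT_161911 and NT_161916 had 3 each, NT_053651 and NT_161902 had 2 each and NT_166460 had 1. NT_166402 had 2 peaks, both in WT-Tag replicate 3, the one male culture. NT_112000 and NT_166311 had 6 and 9 H3K4me3 peaks with 1 FLAG peak each.

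The FLAG regions of these contigs named in this paragraph and the next were wider in K27M-Tag. NT_166314:129275-134059 had 4117, 3549 and 3587 FLAG bases in K27M-Tag against 535, 726 and 1015 in WT-Tag lists (log2 2.35, SE 0.26, limma adjusted p = 0.00112). It lay within the widest H3K4me3 region of the contigs, NT_166314:127110-135855, which had 8574, 8470 and 8605 bases in K27M-Tag against 7390, 7979 and 7916 in WT-Tag lists and whose breadth did not pass the test (log2 0.14, SE 0.04, limma adjusted p = 0.0825). The adjoining NT_166314:134137-135691 had 1490, 837 and 1130 FLAG bases against 241, 312 and 274 (log2 2.03, SE 0.34, limma adjusted p = 0.00288). Both FLAG regions thus rose in breadth inside an H3K4me3 region in which no breadth change was called.

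NT_110857:65661-67860 had the largest difference, with 1623, 1225 and 1443 FLAG bases in K27M-Tag against 176, 543 and 195 in WT-Tag (log2 2.42, SE 0.45, limma adjusted p = 0.00441). NT_166327:70074-72741 had 1956, 1876 and 2668 against 184, 1246 and 699 (log2 1.98, SE 0.60, limma adjusted p = 0.0263), and without K27M-Tag replicate 1, 2 or 3 its adjusted p was 0.0648, 0.0562 and 0.0902. NT_165754:8747-11618 had 2793, 2488 and 2779 against 1394, 1820 and 1458 (log2 0.79, SE 0.19, limma adjusted p = 0.0102), which is close to the median of all FLAG regions, and after centring of each list it was −0.11. Its adjusted p (limma) was 0.0505 without K27M-Tag replicate 1 and 0.0502 without replicate 3. This region held the best FLAG peak on these contigs in K27M-Tag replicates 1 and 3, at percentiles 99.2 and 99.8. Of the 11 FLAG regions on the other contigs with a peak in all 6 lists, 6 were wider in K27M-Tag and 0 narrower, against 43.1% wider among all FLAG regions, with a median log2 of 0.79 against 0.81 over all regions. Without K27M-Tag replicate 1, 2 or 3 the number wider was 3, 4 and 3 of 12, against 20.8, 31.7 and 19.4% of all FLAG regions tested. In lists centred on their median the counts were 3 wider and 2 narrower, against 8.13 and 11.5% of all.

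A total of 14 of 127 FLAG regions on these contigs (11.0%) were in all 3 K27M-Tag lists and in no WT-Tag list, near the 9.89% of all FLAG regions. Without K27M-Tag replicate 2 there were 24. Over all sequences there were then 21721 of 116735 FLAG regions, against 11656 of 117816 with all lists. The highest of the 14 by percentile was NT_166476:21809-23607, with 1784, 1799 and 1657 bases. It was followed by NT_166473:10357-10853 (495, 479 and 364 bases) and NT_166323:48769-49578 (632, 810 and 490 bases). NT_166476 and NT_166473 belonged to a small group of contigs where the local background itself was very high, at the median over their peaks in all lists 70.0 and 43.2 times the genome-wide value, as were NT_166454 (24.2 times) and NT_166480 (27.5 times). On NT_166476 the best peak of K27M-Tag replicate 2 reached percentile 99.0 with a fold of 2.03. The background that the peak caller had set on these 4 contigs was thus high, and the library it came from is not given in the sources used here. What part the background had in their K27M-Tag calls was not tested.

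H3K4me3 breadth on the contigs changed little. Of 51 regions tested, 1 of them on NT_166441, 5 were wider in K27M-Tag (7.56% of all 22592 regions were) and 1 narrower (0.549% were), by limma with Benjamini-Hochberg adjustment. Among the regions called, NT_166327:31200-33423 had the largest difference, with 2194, 2194 and 2173 bases in K27M-Tag against 1404, 1511 and 1297 in WT-Tag (log2 0.64, SE 0.07, limma adjusted p = 0.00780). NT_166447:2096-2903 had 695, 772 and 758 against 441, 549 and 491 (log2 0.59, limma adjusted p = 0.0458), and NT_166323:108992-112978 had 3751, 3941 and 3569 against 2522, 3229 and 2799 (log2 0.40, limma adjusted p = 0.0410). The narrower one was NT_166314:75132-77393, with 1801, 1614 and 1855 bases against 2222, 2199 and 2110 (log2 −0.31, SE 0.06, limma adjusted p = 0.0353). The call at NT_166327 was lost without K27M-Tag replicate 1 (adjusted p = 0.0556, limma), and the other 3 named here were lost in most refits. The number of calls on contigs was 0, 1 and 1 without K27M-Tag replicate 1, 2 or 3, and 2, 6 and 1 without WT-Tag replicate 1, 2 or 3. Calls over all H3K4me3 regions went from 1833 to 76, 581 and 201 without the K27M-Tag replicates in turn. Without the WT-Tag replicates they were 1322, 2548 and 833.

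Of the 6 H3K4me3 regions on the contigs with the most covered bases, 5 had all K27M-Tag values above all WT-Tag values, an order found in 37.9% of all 22592 regions tested. The sixth, NT_166313:53919-57858, had all WT-Tag values above all K27M-Tag values, as 2.06% of all regions did. Those at NT_166314:127110-135855 and NT_166323:108992-112978 are given above, and the latter was the 1 of the 6 that passed the test. NT_166313:53919-57858 had 3787 ± 15.9 bases in K27M-Tag and 3881 ± 46.6 in WT-Tag, NT_166449:20210-23724 had 3485 ± 25.7 and 3275 ± 55.1, NT_165754:269158-272082 had 2862 ± 41.9 and 2649 ± 78.7, and NT_110857:128482-132504 had 3902 ± 111 and 3034 ± 410 (SD, n = 3 each). These 4 did not pass the limma test. On all contigs, 2 of 115 H3K4me3 regions were in all 3 K27M-Tag lists and in no WT-Tag list (4.36% of all 42711 regions were). These were the small peaks at NT_166313:11385-11618 and NT_166480:11840-12152. A total of 0 were in all 3 WT-Tag lists alone (0.260%). With a library left out there were 2 to 6 specific to K27M-Tag. Without K27M-Tag replicate 3 there were 6, and 2564 of 40487 over all H3K4me3 regions. The best H3K4me3 peaks of the lists lay on NT_165754 or NT_166314, at percentiles 90.3, 93.4 and 94.3 in K27M-Tag against 97.4, 98.5 and 98.2 in WT-Tag lists.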

How the data were processed

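Each of 12 ChIP-seq libraries (FLAG or H3K4me3, 3 K27M-Tag and 3 WT-Tag cultures) had 1 deposited list of narrow peaks on mm9. Per the submitters' processing notes, the tools were BWA 0.7.17-r1188, MACS2 2.2.7.1 and bedtools 2.29.2, with builds mm9 and dm6; the role of each, the control, the threshold and the treatment of multi-mapping reads are not given in the sources used here. Per the labels' protocols, Drosophila chromatin was added for H3K4me3 alone. The authors deposited per peak its position, a score, a fold enrichment (ratio over background), and −log10 of a p-value and of a q-value. The lists hold no read counts, so depth is known only as the background coverage that gives back fold and p within a relative error of 0.0001, in 100.00% of peaks.

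Peaks were counted, summed by covered bases, and ranked within their list by −log10 q. FLAG and H3K4me3 libraries of one letter come from the same culture, which pairs the antibodies. Single values were compared by two-sided exact permutation over cultures (Python 3.11.15), and p-values adjusted over 14 such tests. The labels give each culture a letter but do not say that they came from separate embryos, so p-values measure the spread between these cultures. Breadth was tested with limma 3.58.1 (R 4.3.3, trend, all regions with peaks in all 6 lists) on log2 covered bases, adjusted p under 0.05. Steps were tested on simulated data. Recurrence used steps of 10 bp.

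Regions named are, per antibody, up to 6 in all 6 lists (by covered bases), up to 3 per direction specific to a genotype (by lowest percentile), up to 4 with changed breadth (by log2), and the highest peak of each list; the call of largest difference on NT_166441 was named after its values were seen. The members, the measures and the settings were chosen with earlier results of these data known. Alternatives were the higher-scoring 50% of each list, lists cut to equal size, peaks joined across 1000 bp, fold in place of q for percentiles, centred lists, regions in at least 4 lists with a pseudocount of 100 bases, a replicate term, and leaving out each library; a common p limit was added after seeing the data. No gene annotation or sequence of these contigs was used here.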

Additional observations from a re-analysis of the deposited data

How the results depend on the processing

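On NT_166441 the FLAG covered length, its share of the list and the median percentile stayed lower in K27M-Tag in all settings tried; the covered-length difference ran from −32.7 to −50.6 kb when single libraries were left out. The number of peaks turned when peaks were joined across 1000 bp (28.3 more in K27M-Tag), since the gaps in WT-Tag lists then close. The permutation tests between genotypes cannot go below p = 0.100 and say nothing on stability. In the higher-scoring 50% of each list, the H3K4me3 number (0), its share of the list (−0.000313 percentage points) and its median percentile (10.3) on NT_166441 turned or lost their direction, because the strong region alone is left. The share of FLAG bases inside H3K4me3 peaks was 0 there, −0.348 percentage points in lists of equal size and −0.150 to 0.673 with a library left out. The percentile difference between antibodies was 7.12 (p = 0.515, exact permutation) in the higher-scoring 50% and 12.9 (p = 0.150) in equal lists, and 20.2 (p = 0.0625) by sign-flip over pairs, the replicate block; with a culture left out it was 11.9 to 25.7.

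The FLAG regions with changed breadth on contigs numbered 13 of 52 tested, against 5243 of 11980 over all sequences. There were 43 of 52 in centred lists (2351 of 11980) and 28 of 104 with regions in at least 4 lists (9380 of 28490). There were 5 of 8 in the higher-scoring 50% (2549 of 5569), 6 of 9 in equal lists (3934 of 7858) and 4 of 12 after joining (3861 of 11005). NT_166441 had 0 wider in each. H3K4me3 regions with changed breadth (6) became 1 under the replicate block, 3 in centred lists, 3 with regions in at least 4 lists, 2 in the higher-scoring 50%, 0 after joining (fewer regions tested), and 0 to 6 with a library left out, with 0 without K27M-Tag replicate 1. In the same order of settings, the 1833 calls over all H3K4me3 regions became 508, 700, 1277, 641 and 1002, and 76 without K27M-Tag replicate 1. FLAG regions specific to a genotype (18) were 35 in equal lists, 11 after joining and 23 to 29 with a library left out. In equal lists 30 of the 35 were specific to WT-Tag, and in the higher-scoring 50% 16 of 26 were, against 4 of the 18. Over all sequences, 1727 FLAG regions were specific to WT-Tag and 4040 to K27M-Tag in equal lists. These counts were 486 and 6446 in the higher-scoring 50%, and 689 and 11656 in the full lists. H3K4me3 regions specific to a genotype (2) were 1 in the higher-scoring 50%, in equal lists and after joining, and 2 to 6 with a library left out. FLAG breadth at NT_165754:8747-11618 was −0.11 in centred lists. Unless a clause above says so, the cause was not tested.

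Same-numbered K27M-Tag and WT-Tag libraries did not deviate together region by region (correlations of −0.01 to 0.03). A shift of a whole list does not enter these correlations, so they cannot decide whether the numbers pair genotypes. The replicate block gave 16 FLAG calls on contigs in place of 13, and among the regions named it added NT_166441:41068-44932 (adjusted p = 0.0371, limma) and NT_166441:135514-139715 (0.0436) and lost 3 H3K4me3 regions. Without counts, differences near the caller's threshold and differences in depth cannot be told apart.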
